A study of Mus musculus with 4 samples.

Results

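The 8 genes described here, Apoe, Abca1, Lipa, Npc2, Plin2, Cd36, Trem2 and Gpnmb, belong to the lipid handling machinery of macrophages. They were chosen by name, with no measured value in the rule, although earlier results of these data were known at the time. Each matched 1 of the 32287 features counted. The question was how their levels followed macrophage content within the node, and how they differed between healthy nodes and nodes draining arthritic joints. Popliteal lymph nodes (PLNs), which drain the hind paw and ankle, of male C57BL/6 mice were sectioned onto 4 Visium capture areas, on which spots of barcoded probes catch the RNA above them. Each spot reads a patch of tissue in which cells of several types can lie together. The WT area carried 10 PLNs of 5 wild-type mice aged 5.5 months. The Early area carried 6 PLNs of 3 mice with early arthritis at 5.5 months, all with the TNF-Tg genotype, that is, a TNF transgene that leads to chronic joint inflammation. The areas Advanced 1 and Advanced 2 each carried 6 PLNs of 3 TNF-Tg mice with advanced arthritis at 8.5 to 9 months. WT and Early were thus of 1 age and differed in genotype, whereas in Advanced arthritis stage and age cannot be told apart. The nodes of 1 area were pooled, so that mice cannot be separated.

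Macrophages take up modified lipoproteins and dying cells through scavenger receptors, of which the fatty acid translocase Cd36 is one. In the lysosome, the acid lipase encoded by Lipa splits cholesteryl esters and triglycerides, and the small sterol carrier Npc2 hands the freed cholesterol to the membrane protein Npc1. Cholesterol then leaves the cell through the transporter Abca1 onto apolipoproteins such as Apoe, and both genes are targets of the sterol-sensing liver X receptors (LXR). Lipid that is not exported is stored in droplets coated by Plin2. Trem2, a surface receptor for lipids and apolipoproteins, and Gpnmb, a lysosomal and membrane glycoprotein, mark macrophages laden with lipid. Macrophages of lymph node sinuses are known for clearing material that arrives with the lymph.

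On the GRCm38 build, Apoe (ENSMUSG00000002985) lies on chr7:19696109-19699188, Lipa on chr19:34492318-34527474, Abca1 on chr4:53030787-53159895, Plin2 on chr4:86648386-86670060, Cd36 on chr5:17781690-17888801 and Npc2 on chr12:84754562-84773152, all on the minus strand. Trem2 on chr17:48346401-48354147 and Gpnmb on chr6:49036546-49070929 lie on the plus strand. The 250 bases before the RefSeq start of 4 of them are shown. Apoe, Abca1 and Plin2 were taken because they moved with the macrophage share of the spots, and Cd36 because it followed fat. Npc2 moved with the macrophage share too and is not shown, and for Plin2 macrophage share and fat were not separated. The bases shown were read from RefSeq windows on GRCm38.p6, each on the minus strand, 5′ to 3′. Capitals mark any of 4 motifs found on either strand: CACGTG (the E-box, also the core of the element bound by the lysosomal regulator TFEB), AGGTCA (bound by nuclear receptors such as LXR), GAGGAA (a core bound by PU.1, a myeloid factor) and GGGCGG (the GC box).
Apoe, chr7:19699189-19699438: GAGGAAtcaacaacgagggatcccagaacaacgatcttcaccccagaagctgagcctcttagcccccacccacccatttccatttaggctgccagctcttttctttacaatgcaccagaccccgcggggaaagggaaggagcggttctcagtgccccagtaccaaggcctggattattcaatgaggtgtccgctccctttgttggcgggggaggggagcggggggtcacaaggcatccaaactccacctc
Abca1, chr4:53159896-53160145: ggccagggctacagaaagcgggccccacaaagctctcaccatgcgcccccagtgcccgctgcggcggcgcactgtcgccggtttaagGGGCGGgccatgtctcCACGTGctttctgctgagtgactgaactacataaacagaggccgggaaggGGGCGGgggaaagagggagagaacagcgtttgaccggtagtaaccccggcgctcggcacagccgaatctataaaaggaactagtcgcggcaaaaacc
Plin2, chr4:86670060-86670309: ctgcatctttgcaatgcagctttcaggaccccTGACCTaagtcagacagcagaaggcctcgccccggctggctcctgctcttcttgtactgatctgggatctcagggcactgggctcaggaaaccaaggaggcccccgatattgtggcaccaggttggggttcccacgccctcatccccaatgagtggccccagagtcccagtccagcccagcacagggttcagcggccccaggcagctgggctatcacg
Cd36, chr5:17835897-17836146: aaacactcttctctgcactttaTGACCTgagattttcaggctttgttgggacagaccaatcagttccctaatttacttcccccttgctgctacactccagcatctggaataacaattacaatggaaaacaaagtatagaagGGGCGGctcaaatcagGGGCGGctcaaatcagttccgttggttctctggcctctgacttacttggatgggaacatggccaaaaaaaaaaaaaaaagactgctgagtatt
The Apoe window held the PU.1 core at its far end, Abca1 the E-box and a pair of GC boxes, Plin2 1 nuclear receptor motif, and Cd36 1 nuclear receptor motif and a pair of GC boxes. Over the windows of all 8 genes, the E-box was found in 1, the nuclear receptor motif in 3, the PU.1 core in 3 and the GC box in 3. Of all 32851 RefSeq windows of this length, 6.021%, 14.02%, 23.25% and 32.74% held them, respectively. A match is a description of these letters and not a site of binding. Apoe had 3 RefSeq starts and the one at the 5′ end of the annotated gene is shown, and the Cd36 window lies inside the longest annotated extent of that gene but in none of its annotated exons.

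The 4 areas held 833 to 2015 spots and 1808678 to 5180493 unique molecular identifiers (UMIs, each counting 1 captured RNA molecule). All 6 B-cell and all 7 T-cell marker genes, which define the tissue, were detected on each area. Levels are given as UMIs per 10000 UMIs, with a 95% Poisson interval that covers counting error only. WT and Early had 1 area each and Advanced had 2, so p-values rest on the spread between areas, each of which pooled several nodes. For a single gene that spread was estimated with information shared over all genes, and is not the gene's own spread alone. In such spots, fewer cells of a type and less RNA per cell cannot be told apart.

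Over whole areas, Apoe was the one gene of the 8 that passed a test between groups: it was lower on the Advanced areas than on WT. Its level was 72.3 UMIs per 10000 on WT (71.1 to 73.6, 13085 UMIs), 56.5 on Early (55.8 to 57.1), 51.8 on Advanced 1 (51.0 to 52.6) and 62.7 on Advanced 2 (61.8 to 63.6). WT lay above the 3 TNF-Tg areas, and no 2 of the 4 intervals overlapped, the Advanced areas included. Advanced against WT gave a log2 difference of -0.45 ± 0.106 (SE) with an adjusted p of 0.00205 (edgeR quasi-likelihood test, Benjamini-Hochberg over all genes). That test had 1 residual degree of freedom, from the 2 Advanced areas, and its p-value rests on a spread estimated largely from other genes. The difference was no longer called with DESeq2, where it was as large (-0.45 ± 0.241, adjusted p = 1.00), or with total UMIs as the only scaling (-0.34, adjusted p = 0.19). With 1 Advanced area left out, which leaves a value with no test, it was -0.31 without Advanced 1 and -0.61 without Advanced 2.

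In this comparison 176 of 13102 genes were called lower, or 1.34%, and 1 of the 8 genes was among them. A further 96 genes were called higher, and with total UMIs as the only scaling the split was 165 higher and 129 lower, with a median of 0.13 over all genes against 0.01. Macrophage content moved with the Apoe result: of the macrophage marker list without the C1q genes, 6 of 11 tested genes were lower in Advanced than in WT. Lymphatic endothelial genes (3 of 7 lower), T-cell genes (2 of 7 lower), B-cell genes (2 of 6 higher) and red cell genes (5 of 5 higher) moved as well. The summed share of C1qa, C1qb and C1qc, complement genes that mark tissue macrophages, was 19.04 UMIs per 10000 on WT, 11.1 on Early, 7.52 on Advanced 1 and 10.8 on Advanced 2. The part of any of these in the difference was not tested. Set against the C1q UMIs, whose own share was highest on WT, there were 380 Apoe UMIs per 100 C1q UMIs on WT (366 to 395), 507 on Early (493 to 522), 689 on Advanced 1 (661 to 718) and 583 on Advanced 2 (562 to 604). The ratio to C1q was lowest on WT for 7 of the 8 genes, so this order is not particular to Apoe.

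The cholesterol transporter Abca1 had 1.94 UMIs per 10000 on WT (1.74 to 2.15), 1.84 on Early (1.73 to 1.96), 1.72 on Advanced 1 (1.58 to 1.87) and 2.13 on Advanced 2 (1.97 to 2.30). The highest and lowest values were those of the 2 Advanced areas, so the groups overlapped. The acid lipase gene Lipa was nearly level, with 0.45 on WT, 0.45 on Early, 0.43 on Advanced 1 and 0.46 on Advanced 2, and all 4 intervals overlapped. The sterol carrier gene Npc2 had 4.43 on WT (4.13 to 4.75), 3.68 on Early (3.52 to 3.85), 3.49 on Advanced 1 (3.29 to 3.69) and 3.40 on Advanced 2 (3.20 to 3.61). WT lay above the TNF-Tg areas, which overlapped among themselves, and the Advanced against WT difference of -0.47 ± 0.17 (SE) missed the threshold (adjusted p = 0.147).

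Plin2, the droplet coat gene, had 1.21 UMIs per 10000 on WT (1.06 to 1.38), 1.26 on Early (1.16 to 1.36), 0.92 on Advanced 1 (0.82 to 1.03) and 1.06 on Advanced 2 (0.95 to 1.18). Both Advanced areas lay below WT and Early, but the interval of Advanced 2 overlapped with both, and neither difference passed the test (-0.43 ± 0.19 against Early, adjusted p = 0.493, and -0.40 ± 0.21 against WT, adjusted p = 0.462). Cd36 had 0.68 on WT (0.57 to 0.81), 0.51 on Early (0.45 to 0.57), 0.59 on Advanced 1 (0.51 to 0.68) and 1.14 on Advanced 2 (1.03 to 1.27). Only Advanced 2 stood apart, at 1.93 times Advanced 1. Advanced against Early gave 0.70 ± 0.22 (adjusted p = 0.0869), which fell to 0.13 without Advanced 2 and was called with total UMIs as the only scaling (0.77, adjusted p = 0.0342). Against WT it was 0.24 ± 0.23 (adjusted p = 0.806), and -0.33 without Advanced 2. The fat marker list, like Cd36, was lowest on Early and highest on Advanced 2. It had 6.16 UMIs per 10000 on WT, 3.32 on Early, 6.73 on Advanced 1 and 8.34 on Advanced 2, so on Advanced 1 it lay above WT, where Cd36 lay below. Of its 9 tested genes, 4 were higher in Advanced than in Early.

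The markers of lipid-laden macrophages were at the edge of detection. Trem2 gave 51 UMIs in 43 spots over all areas, of which 10 were on WT, 22 on Early, 14 on Advanced 1 and 5 on Advanced 2. At this depth no difference between areas was detectable (-1.05 ± 0.81 for Advanced against WT, adjusted p = 0.726). Gpnmb had 17 UMIs on WT, 49 on Early, 54 on Advanced 1 and 50 on Advanced 2, which makes 0.094 per 10000 on WT (0.055 to 0.15), 0.095 on Early (0.070 to 0.125), 0.16 on Advanced 1 (0.12 to 0.209) and 0.156 on Advanced 2 (0.116 to 0.206). Both Advanced areas were above WT and Early, with intervals that overlapped, and the differences were not called (0.66 ± 0.38 against Early, adjusted p = 0.75, and 0.64 ± 0.46 against WT, adjusted p = 0.693). A single Advanced 1 spot held 12 of its 54 Gpnmb UMIs. Without the richest spot of each area the levels were 0.079, 0.089, 0.125 and 0.135 in the same order. As the mean share of spots with at least 1000 UMIs, each spot counting alike, they were 0.097, 0.067, 0.086 and 0.131. Advanced 1 then lay below WT.

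**Figure D1:**
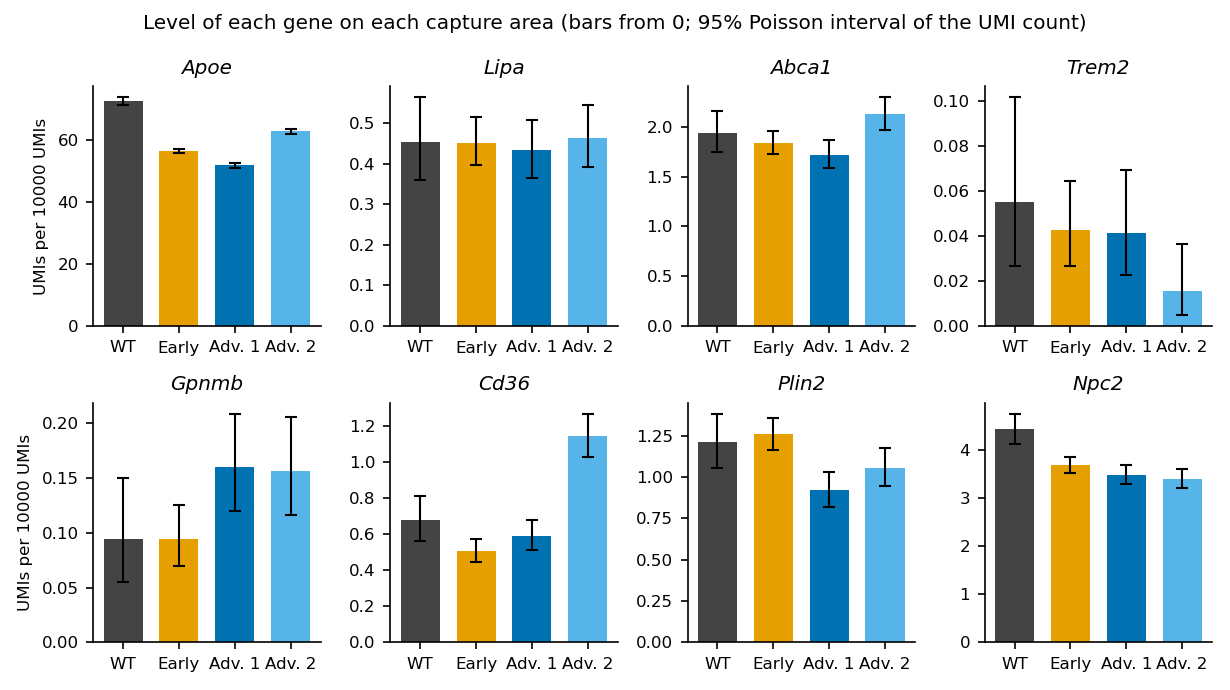
Level of each of the 8 genes in UMIs per 10000 UMIs (vertical axes, from 0 and different for each gene) on the areas WT, Early, Advanced 1 and Advanced 2; error bars are 95% Poisson intervals of the UMI counts. Apoe is highest on WT at 72.3, Cd36 stands out on Advanced 2 at 1.14, and Gpnmb is at 0.16 and 0.156 on the Advanced areas against 0.094 on WT.

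None of the 8 genes was called between Advanced and Early, where 152 of 13102 genes were called in either direction (1.16%, 65 higher and 87 lower, or 89 and 45 with total UMIs as the only scaling). With edgeR 2 of the 8 genes, Cd36 and Plin2, had an unadjusted p under 0.05 (0.00127 and 0.0265), as did 1007 of the 13102 genes. DESeq2 called 0 of the 8, and only 7 of all 13102 genes. For Early against WT there was 1 area a group and no test. Of the 6 genes with at least 100 UMIs over both areas, 0 differed by more than 1.5-fold, while 1151 of 8801 genes did (13.1%, 703 higher and 448 lower, or 552 and 560 with immunoglobulin genes left out of the totals). Apoe was 1.28 times higher on WT than on Early, Cd36 1.34 times and Npc2 1.20 times, and Abca1 1.05 times. Lipa was level, and Plin2 was 1.04 times higher on Early. An alternative took the mean share of the spots with at least 1000 UMIs in place of summed UMIs. With it Cd36 was 0.40 on Early and 0.74 on WT, an Early over WT of 0.54, which is past 1.5-fold. The other genes of these 6 stayed within 1.5-fold, and Abca1 turned to 1.07.

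To follow macrophage content within the nodes, the 2057 spots with at least 1000 UMIs were cut into 4 bins at the quartiles of their C1q share (1.55, 6.62 and 14.3 UMIs per 10000). The C1q genes set these bins and are no result of them. Apoe rose with the C1q share on every area, and at every step from bin to bin. It went from 38.0 to 54.6, 70.7 and 84.8 UMIs per 10000 on WT, and from 31.1 to 39.7, 64.6 and 82.6 on Early. On Advanced 1 it went from 41.3 to 49.97, 58.4 and 67.3, and on Advanced 2 from 37.8 to 52.4, 68.7 and 87.6. The top and bottom bins of the 4 areas did not overlap, and the top bin of Advanced 1 was the lowest of the top bins. The top bin exceeded the bottom bin by a log2 difference of 1.24 ± 0.128 (SE), or 2.37-fold, with area as a block (adjusted p = 1.26e-10). When the bins were set on spots thinned to 1000 UMIs each, a choice made after seeing that bottom-bin spots were shallower, the difference was 0.72 ± 0.0963 (adjusted p = 2.1e-06). That contrast is coarser, since the median spot then had 0 C1q UMIs: the bottom bin held the spots with 0 and the top bin those with more than 1 C1q UMI of 1000. The thinned values of the other genes rest on the same bins.

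**Figure D2:**
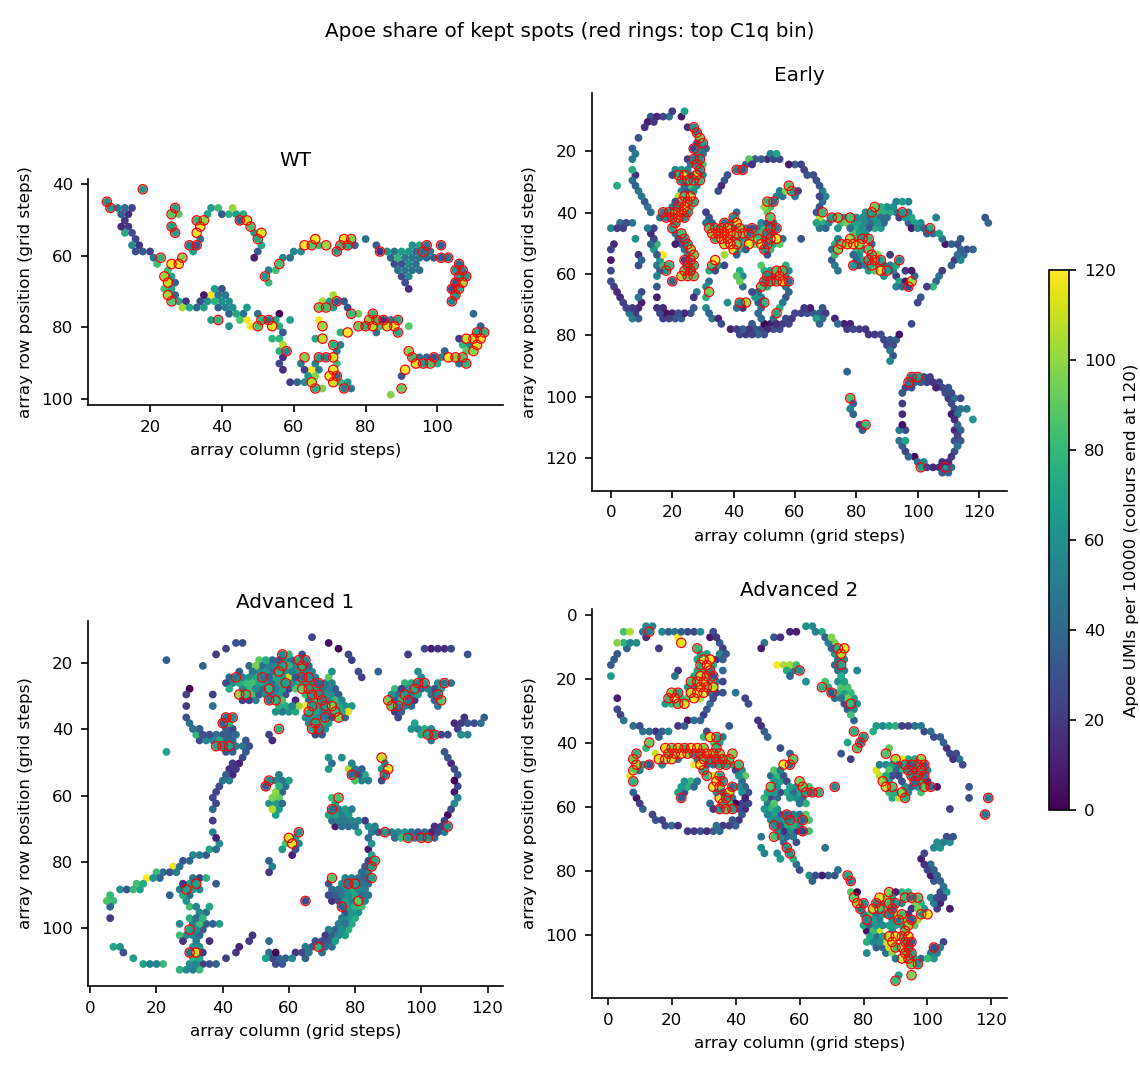
Spots with at least 1000 UMIs of each area at their array position (axes in steps of the array grid), coloured by their Apoe share in UMIs per 10000 UMIs, with colours ending at 120; red rings mark the spots of the top C1q bin. Many spots of this depth trace the outlines of nodes, so that their interior is thinly covered. Ringed spots lie in clusters and strips and together hold 67.3 to 87.6 Apoe UMIs per 10000 on the 4 areas, and Advanced 1 has the fewest of the TNF-Tg areas, 83 against 143 on Early and 179 on Advanced 2.

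Abca1 rose with it. Its bottom and top bins held 0.61 and 2.52 UMIs per 10000 on WT (from 5 and 243 UMIs), 1.43 and 2.43 on Early, 1.63 and 2.26 on Advanced 1, and 1.95 and 2.83 on Advanced 2. The lowest top bin, 2.26, was above the highest bottom bin, 1.95, although only WT and Early climbed at each step. The log2 difference was 0.81 ± 0.165 (adjusted p = 0.000192). The lysosomal sterol carrier gene Npc2 went from 3.18 to 5.11 on WT, from 2.56 to 4.95 on Early, from 3.11 to 4.28 on Advanced 1 and from 2.24 to 4.43 on Advanced 2. The 4 top bins again lay above all bottom bins, with a difference of 0.89 ± 0.148 (adjusted p = 7.91e-06). Plin2 went from 0.61 to 1.49 on WT, from 0.95 to 1.68 on Early, from 0.71 to 1.05 on Advanced 1 and from 0.64 to 1.58 on Advanced 2, and its difference was 1.00 ± 0.176 (adjusted p = 1.85e-05). Its top bin on Advanced 1 was the lowest of the 4, as for Apoe.

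Cd36 was called as well (0.93 ± 0.232, adjusted p = 0.00209) but did not follow the bins in the same way. On WT it was 0.12, 0.60, 1.41 and 0.53 UMIs per 10000 from the bottom to the top bin, and on Advanced 1 0.37, 0.97, 0.43 and 0.49. Its highest bin was thus the third on WT and the second on Advanced 1, while on Early (0.50, 0.36, 0.60 and 0.63) and on Advanced 2 (0.50, 1.06, 1.30 and 1.58) it was the top one. The call was lost under 8 alternatives. It was 0.54 without Advanced 2 (adjusted p = 0.205), 0.36 with the other macrophage markers in place of C1q (adjusted p = 0.281), 0.26 with spots thinned to 1000 UMIs (adjusted p = 0.305), 0.76 without fat-rich spots (adjusted p = 0.14) and 0.36 for the upper against the lower 2 bins (adjusted p = 0.175). With DESeq2, at least 2000 UMIs or a linear trend over the bins the adjusted p was 0.0526, 0.0565 and 0.0789. Lipa, at 0.24 and 0.58 on WT, 0.40 and 0.51 on Early, 0.39 and 0.51 on Advanced 1 and 0.25 and 0.49 on Advanced 2, was higher in the top bin on 4 of 4 areas but just missed the threshold (0.64 ± 0.245, adjusted p = 0.0539). It was called when the other macrophage markers set the bins (0.73, adjusted p = 0.0183), with a linear trend (0.59, adjusted p = 0.0311) and with no area block (0.68, adjusted p = 0.0464), and was 0.30 with thinned spots (adjusted p = 0.242).

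Gpnmb was also higher in the top than in the bottom bin on 4 of 4 areas, on counts of 0 and 7 UMIs on WT, 8 and 20 on Early, 11 and 19 on Advanced 1, and 6 and 20 on Advanced 2. Its difference of 0.74 ± 0.424 was not called (adjusted p = 0.221), and with spots thinned to 1000 UMIs it was -0.03. Trem2 did not pass the filter on low counts: the bottom and top bins held 0 and 9 UMIs on WT, 6 and 6 on Early, 4 and 3 on Advanced 1, and 0 and 0 on Advanced 2. The 0 of 921423 UMIs in the top bin of Advanced 2 allows up to 0.0326 per 10000, that in its bottom bin up to 0.0687, and that in the bottom bin of WT, for Trem2 as for Gpnmb, up to 0.366. Of the 7 genes tested, 5 were higher in the top bin and 0 lower, against 1269 of 9880 genes called higher, or 12.8%. Over all genes the split was 1269 higher and 947 lower, and 993 and 1175 with total UMIs as the only scaling. The direction of the 5 called genes was the same under that scaling.

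**Figure D3:**
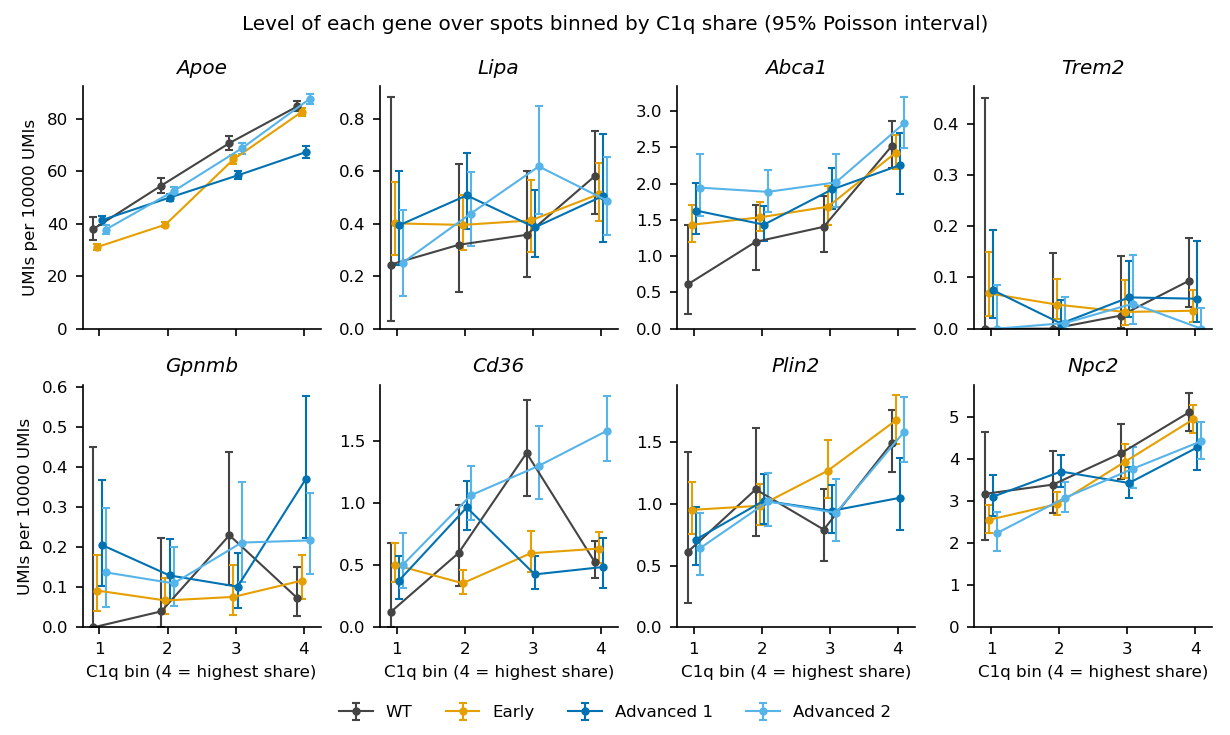
Level of each gene in UMIs per 10000 UMIs (vertical axes, from 0 and different for each gene) over the 4 C1q bins, 1 line for each area, with 95% Poisson intervals. Apoe climbs at each step on all 4 areas, from 31.1 to 41.3 in the bottom bin to 67.3 to 87.6 in the top bin, whereas Cd36 peaks in the third bin on WT and the second on Advanced 1.

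Other cell types moved along the same bins. The other macrophage markers went from 6.60 UMIs per 10000 in the bottom bin to 30.0 in the top bin on WT, from 8.02 to 26.8 on Early, from 10.1 to 20.5 on Advanced 1 and from 7.69 to 29.4 on Advanced 2, and 9 of 10 tested were higher. All 7 lymphatic endothelial genes were higher too, as were 4 of 8 blood endothelial genes, 6 of 8 fat genes, 3 of 6 neutrophil genes, 2 of 5 plasma cell genes and 1 of 7 T-cell genes, while all 6 B-cell genes were lower. The top bin was the deeper one, with a median of 3173 to 8836 UMIs per spot against 1765 to 2713. Apart from fat, the part of these cell types in the rise was not tested, and depth was examined only by the thinned spots and other UMI minimums.

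Cd36 and Plin2 also serve adipocytes, and Cd36 the endothelium of small vessels. To set macrophages and fat apart, the spots were split by C1q share at its median and by fat, and both entered 1 fit of 16 sums with area as a block. The 4 sums of an area share its nodes, so that p-values of this fit also rest on spread between classes of 1 area. Since the median fat share was 0, the fat class held every spot with at least 1 UMI of the 10 fat genes, which were also the deeper spots on each area (medians of 3921 to 12572 UMIs against 2287 to 4050). Cd36 was called with fat and not with C1q. Outside fat, spots of low and of high C1q share had 0.21 and 0.46 Cd36 UMIs per 10000 on WT, 0.24 and 0.50 on Early, 0.45 and 0.43 on Advanced 1 and 0.51 and 0.46 on Advanced 2. In the fat class the same pairs were 0.86 and 0.95, 0.73 and 0.71, 1.097 and 0.48, and 1.57 and 2.21. Fat spots had the higher level in all 8 comparisons within an area and C1q class. The fat coefficient of Cd36 was 1.38 ± 0.163 (adjusted p = 7.51e-08), its C1q coefficient 0.17 ± 0.164 (adjusted p = 0.51), and the difference between them, C1q minus fat, -1.21 ± 0.24 (adjusted p = 0.000509). With classes set on spots thinned to 1000 UMIs the fat coefficient was 1.93 (adjusted p = 2.81e-13). Along with the fat genes, 5 of 5 red cell genes and 2 of 8 blood endothelial genes were higher in the fat class, and their part in the Cd36 difference was not tested.

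Apoe had the opposite order. Outside fat it had 52.7 and 81.4 UMIs per 10000 in spots of low and high C1q share on WT, 35.0 and 74.4 on Early, 43.7 and 62.0 on Advanced 1 and 48.7 and 78.2 on Advanced 2. In the fat class the pairs were 47.5 and 80.4, 39.4 and 77.6, 50.5 and 60.8, and 45.8 and 81.3, so that fat moved the level little within a C1q class. Its C1q coefficient was 0.77 ± 0.0697 (adjusted p = 2.51e-11) and its fat coefficient 0.10 ± 0.0692 (adjusted p = 0.535, though 0.0288 at a value of 0.18 with spots thinned to 1000 UMIs), and these differed by 0.67 ± 0.0978 (adjusted p = 4.56e-06). Abca1 was alike, with 0.58 ± 0.0908 for C1q (adjusted p = 4.73e-06), 0.02 ± 0.0888 for fat (adjusted p = 0.948) and 0.56 ± 0.131 for the difference (adjusted p = 0.00366, and 0.113 with spots thinned to 1000 UMIs).

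Npc2 and Plin2 had C1q coefficients past the threshold, 0.50 ± 0.0827 (adjusted p = 1.04e-05) and 0.46 ± 0.102 (adjusted p = 0.000675). The Plin2 call was lost without Early (0.36, adjusted p = 0.0703). Their fat coefficients, 0.22 ± 0.0817 (adjusted p = 0.147) and 0.28 ± 0.0997 (adjusted p = 0.11), were not called, but neither was the difference between C1q and fat (adjusted p = 0.143 and 0.575), so that for these genes the data do not separate the C1q and fat coefficients. Lipa (0.31 ± 0.14 for C1q, adjusted p = 0.112) and Gpnmb (0.56 ± 0.275, adjusted p = 0.142) were not called, nor were their fat coefficients. In all, 4 of 7 genes were higher with C1q, where 12.8% of 10541 genes were, 1 was higher with fat, where 2.38% were (251 higher and 171 lower, or 170 and 319 with total UMIs as the only scaling), and 3 had differing coefficients, where 8.3% of genes did.

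**Figure D4:**
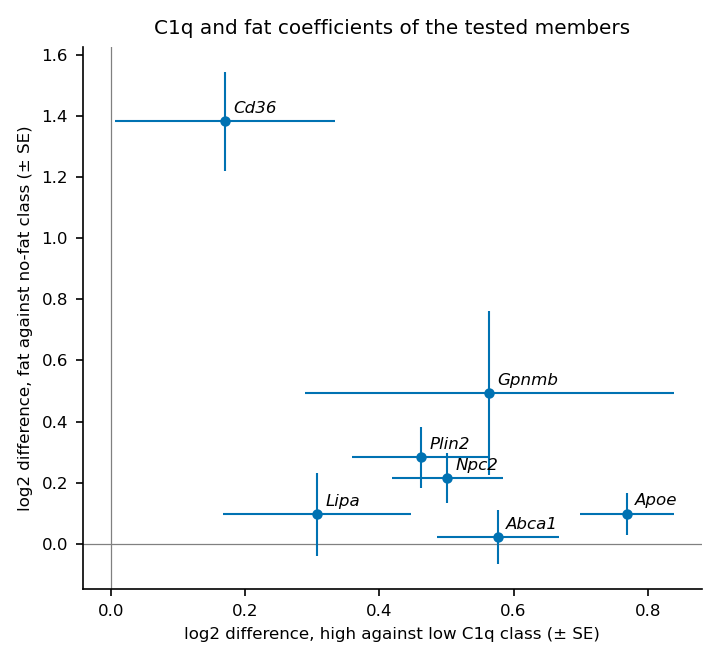
Log2 difference of each tested gene between high and low C1q class (horizontal axis) and between fat and no-fat class (vertical axis) from 1 fit with area as a block; bars are 1 SE. Cd36 lies at 0.17 and 1.38, away from the other 6 genes, and Apoe and Abca1 lie near 0 for fat at 0.77 and 0.58 for C1q.

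The other genes of the same pathways were read from 6 lists, each of which also holds 1 or more of the 8 genes, except for sterol synthesis. Of 12 cholesterol efflux and LXR genes, 11 were tested between the top and bottom C1q bin, 8 were higher and 1 lower. The largest differences were those of the lipoprotein component Apoc1 (1.30 ± 0.436, adjusted p = 0.0252) and of Apoe, and the lowest those of Mylip, which encodes a ubiquitin ligase induced by LXR (-0.50 ± 0.16, adjusted p = 0.0169), and of the LXR gene Nr1h2 (-0.30 ± 0.177, adjusted p = 0.228). The other LXR gene, Nr1h3, was higher (0.87 ± 0.176, adjusted p = 0.000187). It is named beside Nr1h2 as the second LXR gene and was chosen after its value was seen. The median of the list was 0.81, beside 0.01 over all genes. With C1q and fat in 1 edgeR fit, Apoc1 had a fat coefficient of 1.07 ± 0.244 (adjusted p = 0.00552). Its C1q coefficient was 0.23 ± 0.248 (adjusted p = 0.556), and the difference between them was not called (adjusted p = 0.176). In that fit 7 of the 11 genes were higher with C1q, and 1, Apoc1, was higher with fat.

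The lysosomal lipid list moved with the bins as well: of 17 genes tested, 15 were higher and 0 lower, with a median of 1.00. The protease gene Ctsb (1.87 ± 0.139, adjusted p = 6.93e-15) and the progranulin gene Grn (1.72 ± 0.147, adjusted p = 5.86e-13) had the largest differences, and the sphingomyelinase gene Smpd1 (-0.04 ± 0.264, adjusted p = 0.939) the lowest. Of 11 uptake receptors, 9 were tested and 8 were higher, led by the sinus scavenger receptor Marco (3.38 ± 0.157, adjusted p = 8.22e-23) and the apoptotic-cell receptor Axl (1.98 ± 0.167, adjusted p = 4.39e-13). Cd36 was among the lowest of this list.

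The droplet list went mainly with fat. Between the C1q bins, 3 of its 12 tested genes were higher, of which the triglyceride synthase gene Dgat2 (2.12 ± 0.421, adjusted p = 0.00013) and the adipocyte perilipin gene Plin4 (1.39 ± 0.494, adjusted p = 0.0359) had the largest differences and Hilpda (-0.13 ± 0.398, adjusted p = 0.861) and Dgat1 (0.04 ± 0.267, adjusted p = 0.934) the lowest. With C1q and fat in 1 fit, Dgat2 had a fat coefficient of 2.47 ± 0.245 (adjusted p = 1.19e-09) beside 0.07 ± 0.232 for C1q, and Plin4 one of 3.49 ± 0.329 (adjusted p = 3.29e-10) beside -0.64 ± 0.286. In that fit 6 of the 12 genes were higher with fat, where 2.38% of all genes were, and Plin2 was not one of them. With C1q 2 of the 12 were higher, a share near the 12.8% of all genes: Plin2 and the cholesterol ester synthase gene Soat1 (0.41 ± 0.131, adjusted p = 0.0186). The C1q coefficient was below the fat coefficient for 5 of the 12.

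The TREM2 list, genes of lipid-associated macrophages, was mixed, with 7 of 12 tested genes higher and 2 lower between the bins. The lipoprotein lipase gene Lpl (2.10 ± 0.223, adjusted p = 2.68e-10) and Axl led it, and the protease inhibitor gene Cst7 (-0.84 ± 0.259, adjusted p = 0.0134) and the tetraspanin gene Cd9 (-0.42 ± 0.155, adjusted p = 0.045) were lowest. Several of its members are general macrophage or lysosomal genes, and Ctsb, Ctsd and Axl also stand in the lists above. With C1q and fat in 1 edgeR fit, Lpl was called with both. Its fat coefficient was 1.46 ± 0.184 (adjusted p = 3.21e-07) and its C1q coefficient 0.57 ± 0.187 (adjusted p = 0.0226). The difference, C1q minus fat, was -0.89 ± 0.261 (adjusted p = 0.0248), so Lpl went more with fat. Of the sterol synthesis genes, 0 of 11 tested were called higher and 1 lower, where 9.59% of all genes were lower. That gene was Srebf2, the transcription factor of the pathway (-0.76 ± 0.176, adjusted p = 0.000899), and the other extremes were Cyp51 (1.11 ± 0.467, adjusted p = 0.081), Hmgcs1 (0.44 ± 0.308, adjusted p = 0.34) and Insig1 (-0.34 ± 0.308, adjusted p = 0.479), none of them called.

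**Figure D5:**
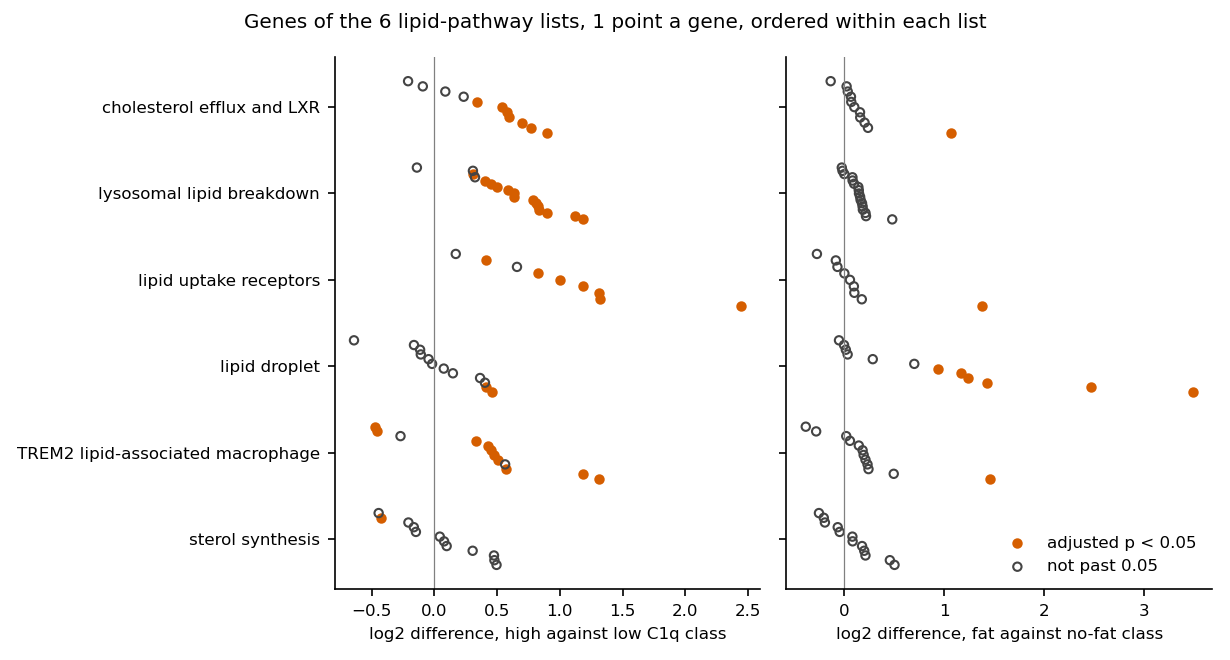
Log2 difference of every tested gene of the 6 lists (1 point a gene, ordered within each list) for high against low C1q class (left) and fat against no-fat class (right) in 1 fit; filled points have an adjusted p under 0.05. The lysosomal list lies to the right with C1q (14 of 17 genes called) and near 0 with fat (0 of 17), and the droplet list lies to the right with fat (6 of 12).

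Between groups, fewer genes of these lists were called. Against WT, Advanced was lower for 4 of 10 tested uptake receptors, 2 of 12 efflux genes, 2 of 17 lysosomal genes and 2 of 13 TREM2-list genes, and higher for none of the 6 lists' genes, where 1.34% of all genes were lower. Of these called genes, Apoe is itself among the efflux genes, and Ctsb is counted in both the lysosomal and the TREM2 list. The macrophage markers, 6 of 11 lower, moved with the called genes, and Cd68 and Mertk stand in both the marker list and the receptor list. Their part was not tested. Against Early, the LXR gene Nr1h3 was lower (-0.70, adjusted p = 0.02) and Lpl of the TREM2 list higher (0.74, adjusted p = 0.0291), both chosen after their values were seen. Lpl was lower than on WT (-0.81, adjusted p = 0.00319), so that Early was the lowest of the 3 groups. The fat list was lowest on Early too, but on WT it was below both Advanced areas. The part of fat in the Lpl differences was not tested. No droplet or sterol synthesis gene was called in either comparison.

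To compare spots of like C1q content between groups, the top C1q bins were tested on their own. There Apoe was 84.8 UMIs per 10000 on WT, 82.6 on Early, 67.3 on Advanced 1 and 87.6 on Advanced 2, so that the Advanced areas lay on both sides of WT and Early. Advanced against WT was -0.27 ± 0.407 (adjusted p = 0.994) and Advanced against Early -0.14 ± 0.409 (adjusted p = 0.999), and the SE allows a difference as large as that over whole areas. Even within this bin the C1q share differed, at 29.5 on WT, 24.5 on Early, 19.6 on Advanced 1 and 24.6 on Advanced 2. Gpnmb was 0.073 on WT, 0.117 on Early, 0.37 on Advanced 1 and 0.217 on Advanced 2, with differences of 1.81 ± 0.705 against WT (unadjusted p = 0.0104, adjusted p = 0.456, edgeR) and 1.22 ± 0.587 against Early (unadjusted p = 0.0375, adjusted p = 0.999). Both Advanced areas lay above both others, on 19 and 20 UMIs, of which 12 on Advanced 1 and 7 on Advanced 2 came from 1 spot each. Cd36 was 0.53 on WT, 0.63 on Early, 0.49 on Advanced 1 and 1.58 on Advanced 2, again with Advanced 2 alone apart. The top bin of that area also held 13.2 fat-list UMIs per 10000 against 1.48 to 4.21 on the others, and without the fat-rich spots the Cd36 difference turned from 0.91 to -0.70 against WT and from 0.74 to -0.36 against Early.

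None of the 7 tested genes was called in the top bin by edgeR or DESeq2, and with edgeR Cd36 and Gpnmb had an unadjusted p under 0.05 in both comparisons. Over all genes, 36 of 10730 were called between Advanced and Early (0.336%) and 59 between Advanced and WT (0.55%, 16 higher and 43 lower, or 27 and 33 with total UMIs as the only scaling). DESeq2 called 0 and 5 genes, respectively, and 439 and 643 had an unadjusted p under 0.05 with edgeR.

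The genes whose pattern was most like that of each gene over the 16 sums (4 bins on 4 areas) were found by Pearson's r of log2(UMIs per 10000 + 0.1) among genes with at least 500 UMIs, with the C1q genes left out. The sums of 1 area share its nodes and library, so r is a description. Apoe was followed most closely by the iron carrier gene Trf (r = 0.978), the selenoprotein gene Selenop (0.97) and the saposin precursor gene Psap (0.968). For Npc2 they were Timp2 (0.956), Selenop (0.95) and Ppt2 (0.944), and for Abca1 the inhibitory receptor gene Lair1 (0.934), Shank3 (0.92) and Nrros (0.92). The Cd36 pattern was most like those of Trip10 (0.883), the fatty acid carrier Fabp4 (0.883) and the adipokine Retn (0.853), the last of which is in the fat list. Plin2 was nearest to Twf1 (0.883), Lgals3 (0.868) and Angptl4 (0.867), and Lipa to Pcyox1 (0.852), Fxyd6 (0.846) and Eva1b (0.842). For the sparse genes r was lower, with Itih5 (0.813), Psmd13 (0.809) and B4galt1 (0.80) nearest to Gpnmb and Calm3 (0.793), Tmx2 (0.766) and Dido1 (0.724) nearest to Trem2, which had 51 UMIs in all and carries little pattern.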

How the data were processed

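RNA of popliteal lymph nodes was measured on 4 Visium capture areas after methanol fixation and H&E staining. The deposited values are raw UMI counts per gene and spot. Per the labels, the authors made them with Space Ranger 1.1.0 on mm10 (GRCm38), and the submitters' notes also name Seurat 4.0.3 and R 4.1.1. No normalization had been applied. All spots under tissue were summed per area, and for bins and classes only spots with at least 1000 UMIs were used (2057 of 6119 spots, with 89.9 to 96.5% of the UMIs), so shallow spots do not bear on those results.

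The members and lists were chosen with earlier results of these data known. All 8 genes are named, with the 2 highest and 2 lowest tested genes of each pathway list by the bin difference and the 3 genes most like each in pattern, and any other named gene was chosen after its value was seen. Of the genes this rule names, 2 are not reported here. UMIs summed per area, or per area and bin or class, were tested with edgeR 4.0.16 (limma 3.58.1, R 4.3.3): TMM scaling, filterByExpr, quasi-likelihood test, Benjamini-Hochberg adjustment over all genes tested and a threshold of 0.05. Comparisons between groups had 1 residual degree of freedom from the 2 Advanced areas, and the single WT and Early areas were assumed to vary like them. The quasi-likelihood test shares information on spread over all genes, so these p-values do not rest on that 1 degree of freedom alone. The bin and class fits had area as a block. The bin fit took 2 sums from each of the 4 areas, which were its replicates, whereas the class fit took 4 from each (16 sums), which are not independent. Early against WT had no test and was called past 1.5-fold with at least 100 UMIs. The scripts were tested on simulated data. Alternatives were RLE and total-UMI scaling, DESeq2 1.42.0, no filter on low counts, immunoglobulin genes left out, other UMI minimums (500 and 2000), limits within areas, another macrophage index, fat-rich spots left out, upper against lower bins or a trend over the bins, no area block, and each area left out in turn. For levels per area, the mean of the shares of spots with at least 1000 UMIs was a further alternative. Bins and classes set on thinned spots, Gpnmb without its richest spots and the test of C1q against fat coefficients were added after seeing the data. Positions are from GENCODE M21. Columns of spot position were used for the map only.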

Additional observations from a re-analysis of the deposited data

Results flagged for a closer look

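In 3 cases the fat and no-fat classes differed in opposite directions between groups, and in none of them was the difference between the groups tested. On the scale of log2(UMIs per 10000 + 0.1), Abca1 in the fat class minus the no-fat class was -0.0163 on WT and 0.09 on Early. Plin2 was -0.0104 on WT and 0.24 on Early, and on the Advanced areas it was 0.27 and 0.46, with a mean of 0.37. Both WT values are close to 0. Among 14 sets of 4 areas examined for the 7 tested genes (top minus bottom C1q bin, and fat minus no fat), no area stood apart from the other 3 by Dixon's ratio.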

How the results depend on the processing

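Apoe, Abca1, Npc2 and Plin2 were called higher in the top C1q bin, and Cd36 higher with fat, under every alternative run. No paired analysis was possible because the groups were different mice on separate capture areas. The number of genes called moved by over 1.5 times with DESeq2 to 7 for Advanced against Early and 34 against WT over whole areas, to 1033 for the C1q bins (2216 in the main test), and to 0 and 5 in the top bin. Spots with at least 1000 UMIs gave 91 genes for Advanced against Early. Leaving out 1 area gave 889 to 2199 genes for the bins, 1146 to 2352 for C1q (2391 in the main test), 151 to 346 for fat (422) and 369 to 943 for C1q minus fat (875). The lowest came without Early, except for fat, where it came without Advanced 2, and without Early fat gave 218 genes, while without Advanced 2 C1q minus fat gave 494. Thinned spots gave 1074 for C1q and 313 for C1q minus fat, and at least 2000 UMIs gave 213 for fat. Without fat-rich spots the counts were 1418 for the bins and 19 for Advanced against Early in the top bin. The other macrophage index gave 23 and 103 genes in the top bin against Early and WT, and limits within areas gave 106 against WT. The counts for Early against WT stayed within 1.5 times. Directions turned only in differences that were not called. Over whole areas, Advanced against Early turned with total UMIs for Apoe (0.0198) and Abca1 (0.0638), and with spots of at least 1000 UMIs for Abca1 (0.0396). With 1 Advanced area left out, which leaves a value with no test, it reached 0.0836 for Apoe and 0.143 for Abca1. Advanced against WT then reached 0.0332 for Abca1 and -0.326 for Cd36. Gpnmb turned in the bins with thinned spots (-0.0254), and its C1q minus fat value was -0.136 with at least 500 UMIs, -0.188 with limits within areas, -0.553 with thinned spots and -0.0323 to 0.139 with 1 area left out. The Abca1 fat value was -0.0433 with total UMIs, -0.0165 with at least 2000 UMIs and -0.0128 to 0.0501 with 1 area left out. In the top bin, Advanced against Early was 0.0233, 0.286 and 0.0333 for Lipa with at least 2000 UMIs, the other index and no fat-rich spots, -0.0015, -0.0795 and -0.0381 for Abca1 with no filter, the other index and no fat-rich spots, and -0.356 for Cd36 without fat-rich spots. Against WT it was 0.0241 for Abca1 with total UMIs and -0.698 for Cd36 without fat-rich spots. With 1 Advanced area left out, the top-bin difference against Early reached 0.0456 for Apoe, -0.163 for Abca1 and -0.44 for Cd36. That against WT reached 0.0408 for Abca1. In these cases the cause was not tested. Further calls depended on a setting for Lipa with C1q (0.45, adjusted p = 0.0418 without Advanced 1 and 0.0118 with limits within areas, edgeR) and for Npc2 in C1q minus fat (0.42, adjusted p = 0.0186 without Advanced 1). Depth limits Trem2 and Gpnmb, with 51 and 170 UMIs in all.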
